A study of Bos taurus with 15 samples.

Results

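The genes described here encode the subunits of oxidative phosphorylation, the respiratory chain and ATP synthase of the inner mitochondrial membrane. They were chosen by symbol: nuclear genes for the subunits of complexes I to V (NDUFA, NDUFB, NDUFC, NDUFS and NDUFV; SDHA to SDHD; UQCR; COX4 to COX8; ATP5F1, ATP5M, ATP5P and ATP5IF1) and the protein-coding genes of mitochondrial DNA. Of the 17259 genes in the table, 85 matched, 76 of them nuclear and 9 mitochondrially encoded. Complex I had 37 members, complex II had 4, complex III had 8, complex IV had 16 and complex V had 20. NDUFA4 and NDUFA4L2 were counted with complex IV. The table had no row under the symbols of some other subunits, among them NDUFA13, UQCR10, COX5B, COX6B1, COX7C, MT-CO1 and MT-ND1. The counts and shares given for members, complexes and mitochondrial DNA therefore leave these subunits out.

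Complex I passes electrons from NADH, and complex II from succinate, to ubiquinone, from which complex III carries them to cytochrome c and complex IV to oxygen. Proton pumping by complexes I, III and IV drives ATP synthesis by complex V. All subunits of complex II are nuclear, whereas the other complexes join nuclear subunits to a few that are translated inside the mitochondrion from mitochondrial transcripts. In mammalian embryos, oxidative phosphorylation increases when the blastocyst forms, and it serves in large part the sodium pump of the trophectoderm, which fills the cavity.

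Poly(A) RNA of bovine (Bos taurus) blastocysts at day 7 was sequenced in 3 groups of 5 libraries. In the automatic group the cumulus cells, the follicular cells that surround the oocyte, had been stripped from the zygotes by an automated method, and the embryos were cultured in SOF, a synthetic oviduct fluid medium. In the manual group the cumulus cells had been stripped by hand before the same culture. In the in vivo group the blastocysts had developed in, and were collected from, the animal. The study asked whether the way of stripping alters the blastocyst transcriptome. The labels name no donor or culture batch for any library. Whether replicates are biological is thus not stated, and p-values reflect no more than the variation among these 15 libraries, part of which may be technical. In bulk samples, fewer cells of a type and less RNA per cell cannot be told apart.

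Library totals ranged from 17.96 to 41.97 M estimated counts (M, 1000000). Markers of trophectoderm, epiblast and hypoblast were detected (7 of 7, 3 of 3 and 4 of 4 genes with counts). The summed trophectoderm level was 4037 to 13577 CPM in automatic, 7885 to 31499 CPM in manual and 12414 to 28190.3 CPM in in vivo libraries. Its keratin KRT18 was 1434 to 3302 CPM in automatic, below all manual (3699 to 12159 CPM) and all in vivo libraries (4448 to 10017 CPM). Of all genes tested, 0.527% were lower without overlap in automatic against manual and 1.16% in automatic against in vivo. The other trophectoderm markers overlapped between the groups, and TFAP2C had its highest mean in automatic libraries. The summed epiblast level was 161 to 722 CPM in automatic, 182 to 588 CPM in manual and 204 to 793 CPM in in vivo libraries. Within it NANOG was 4.68 to 94.4 CPM in automatic and 19.1 to 106 CPM in manual, below all in vivo libraries (161 to 414 CPM). Of all genes tested, 0.276% showed that pattern. POU5F1 was 118 to 539, 154 to 520 and 27.8 to 373 CPM in automatic, manual and in vivo libraries. SOX2 was 4.41 to 88.5, 8.17 to 29.4 and 5.65 to 16.5 CPM in the same order. The means of POU5F1 and SOX2 were higher in automatic and manual than in in vivo libraries. The summed hypoblast level was 224 to 679 CPM in automatic, 159 to 340 CPM in manual and 182 to 483 CPM in in vivo libraries, with GATA4 and SOX17 at or below 1.57 CPM. Of the cumulus and granulosa markers 7 of 8 in the table had counts, and their summed level was 1.71 to 20.8 CPM in automatic, 7.48 to 88.4 CPM in manual and 16.5 to 44.5 CPM in in vivo libraries, with FOXL2 at 0 in every library. Markers of stroma and endothelium (5 of 5 with counts) summed to 57.6 to 275 CPM in automatic, 75.2 to 308 CPM in manual and 8.83 to 96.4 CPM in in vivo libraries. The oocyte markers (6 of 7, NLRP5 at 0) summed to 0.442 to 30.5 CPM in automatic, 14.2 to 46.5 CPM in manual and 11.8 to 96.4 CPM in in vivo libraries. Of the blood markers PTPRC was at 0 and HBB was at 0.111 to 190.4 CPM in automatic, 1.47 to 77.4 CPM in manual and 0 to 34.7 CPM in in vivo libraries. The part of these cell types in the results was not tested. A set of 5 libraries spread over the groups stood apart: they (automatic 2 and 4, manual 2, in vivo 2 and 4) had 6977 to 8547 genes with at least 10 counts, against 9900 to 12611 in the other 10. These are called the low-detection libraries. For each comparison the member calls and the nuclear and mitochondrially encoded median fold changes are given with and without them. Other values leave them out only where this is stated.

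No member passed the test in any comparison. Per-gene differences were tested with edgeR's quasi-likelihood test with Benjamini-Hochberg adjustment over all 11578 genes kept by its filter on low counts, 82 members among them, and a gene was called at an adjusted p under 0.05. COX4I2, COX6A2 and NDUFA4L2 did not pass the filter. In in vitro (automatic and manual together) against in vivo, 0 of 82 members were called, against 0.0173% of all genes (2 genes). In automatic against in vivo, 0 of 82 were called, against 0.0173% of all genes, and in manual against in vivo and in automatic against manual 0 of 82, against 0% of all genes. The counts at an unadjusted p under 0.05 were 7 members (all with fold changes below 0) in in vitro against in vivo, 6 in automatic against in vivo, 2 in manual against in vivo and 0 in automatic against manual. At that level stood 6.13% of all genes in in vitro against in vivo, 5.36% in automatic against in vivo, 3.39% in manual against in vivo and 1.48% in automatic against manual. Without the low-detection libraries edgeR called 0 of 83 members in each comparison, against 0.0568% of all genes in in vitro against in vivo, 0.073% in automatic against in vivo, 0.0243% in manual against in vivo and 0.00811% in automatic against manual. DESeq2 called 0 of 82 members in each comparison. Of all 11578 genes it called 87 in in vitro and 87 in automatic against in vivo, 44 in manual against in vivo and 9 in automatic against manual. Limma-voom also called 0 members in each comparison. Of all genes it called 15 in in vitro, 9 in automatic and 1 in manual against in vivo. With quality weights limma-voom called 1 of 82 members, ATP5MC2 in automatic against in vivo, beside 95 of 11578 genes.

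The transcripts of mitochondrial DNA made up a large share of each library, and that share varied more within groups than between them. The 9 mitochondrially encoded members took 3.33, 8.18, 5.37, 9.38 and 5.68% of all counts in automatic libraries 1 to 5, 3.58, 14.4, 3.26, 6.13 and 9.99% in manual libraries 1 to 5 and 3.29, 13.4, 4.15, 10.997 and 6.09% in in vivo libraries 1 to 5. The means were 6.39 ± 2.40% in automatic, 7.48 ± 4.73% in manual and 7.59 ± 4.42% in in vivo libraries (SD, n = 5 each), and the 3 groups overlapped almost wholly. The highest library of each group was a low-detection one: automatic 4, manual 2 and in vivo 2. Over the 5 low-detection libraries the share was 8.18 to 14.4%, and over the other 10 it was 3.26 to 9.99%.

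The 76 nuclear members together took a share that was smaller in 14 of 15 libraries, in vivo 1 being the exception, and that spread less within each group. It was 3.19, 5.16, 2.86, 4.23 and 3.64% of counts in automatic, 3.36, 4.996, 2.99, 3.44 and 3.95% in manual and 3.57, 6.97, 3.31, 4.27 and 4.19% in in vivo libraries. The means were 3.82 ± 0.911% in automatic, 3.75 ± 0.776% in manual and 4.46 ± 1.46% in in vivo libraries (SD, n = 5 each). In vivo 2 was apart from its group, in which the other 4 libraries lay between 3.31 and 4.27%. The ratio of mitochondrial to nuclear member counts was 1.66 ± 0.433 in automatic, 1.87 ± 0.828 in manual and 1.63 ± 0.643 in in vivo libraries (SD, n = 5 each). The differences between these means were smaller than the SDs.

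**Figure D1:**
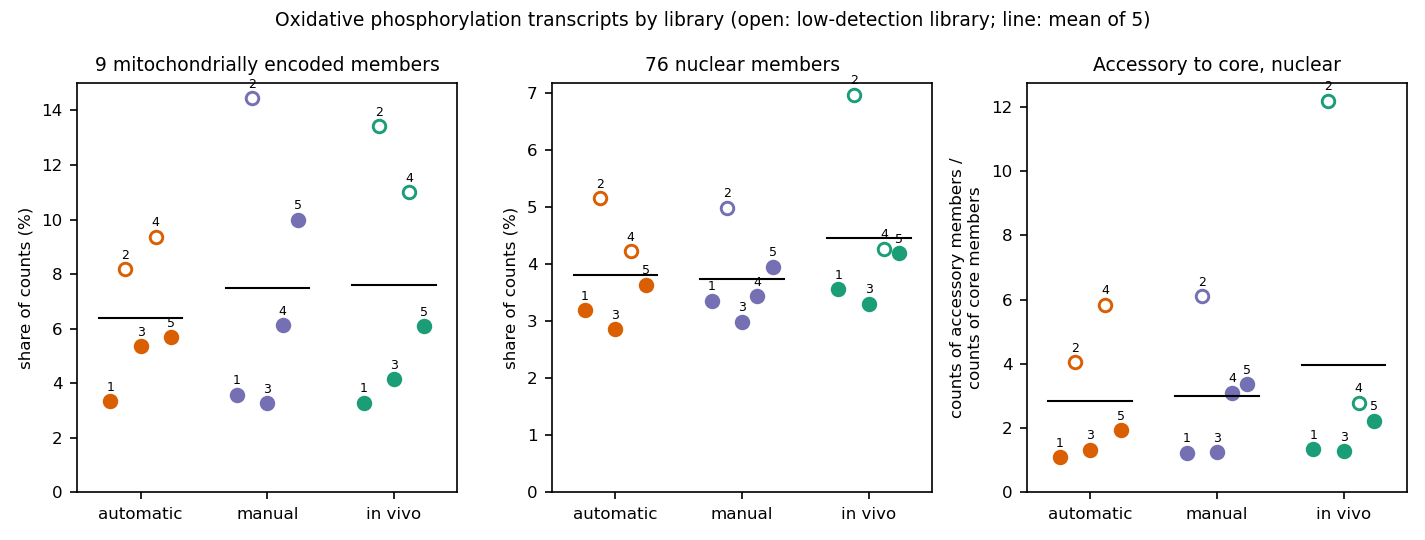
Share of each library's counts (%) taken by the 9 mitochondrially encoded members (left) and the 76 nuclear members (middle), and the ratio of accessory to core nuclear counts (right). Each point is 1 library with its number, open points are the low-detection libraries and lines are the mean of 5. The groups overlap in all 3 panels, the open points lie high, and in vivo 2 reaches 6.97% in the middle panel and a ratio of 12.2 in the right one.

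The balance of core and accessory subunits separated libraries far more than groups. A list of 16 core subunits, the nuclear core subunits of complex I, the 4 subunits of complex II, the Rieske protein UQCRFS1 of complex III, COX4I1 and COX5A of complex IV and the alpha and beta subunits of the ATP synthase head (ATP5F1A and ATP5F1B), was set against the other 60 nuclear members. These are called accessory here, a label for all nuclear members off the list. It thus also covers structural subunits such as UQCRC1, UQCRC2, ATP5F1C, ATP5MC1, ATP5MC2 and ATP5MC3. Counts of the accessory members divided by those of the core members gave 1.09, 4.05, 1.32, 5.84 and 1.94 in automatic, 1.24, 6.11, 1.26, 3.10 and 3.36 in manual and 1.35, 12.2, 1.27, 2.80 and 2.23 in in vivo libraries. The ratio reached 2.80 to 12.2 in the low-detection libraries and stayed at 1.09 to 3.36 in the other 10, so manual 4 and 5 overlapped the low-detection ones.

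Some accessory subunits, among them small ones of complexes III, IV and V, spread widely among the libraries of every group. COX6C, a single-helix subunit of cytochrome c oxidase, had 313, 3924, 349, 4418 and 1079 CPM (counts per 1000000 of the scaled library size) in automatic libraries 1 to 5, 356, 4004, 346, 1059 and 2141 CPM in manual and 702, 18787, 410.4, 1949 and 1245 CPM in in vivo libraries. The low-detection libraries of each group averaged 7.19 times the rest in automatic, 4.10 times in manual and 13.2 times in in vivo. UQCRB, which belongs to the ubiquinone-binding part of complex III, had 310.3, 2123, 251, 3136 and 686 CPM in automatic, 327, 2541, 242, 905 and 1145 CPM in manual and 344, 6533, 190.5, 949 and 589.7 CPM in in vivo libraries. In both genes in vivo 2 was the highest of all 15 libraries, and automatic 2 and 4, manual 2 and in vivo 2 all lay above every library with high detection. COX7B, another small complex IV subunit, showed ratios of 7.63, 4.29 and 16.2 in automatic, manual and in vivo libraries. ATP5MK, a small membrane subunit of ATP synthase, showed 8.13, 5.04 and 12.9. The in vivo ratios rested mainly on in vivo 2, and the manual ones on manual 2 alone. COX7B had 8030 CPM in in vivo 2, 550 CPM in in vivo 4 and 116 to 446 CPM in the rest of that group. ATP5MK had 7099 CPM in in vivo 2, 709 CPM in in vivo 4 and 194 to 490 CPM in the rest.

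Core subunits were less often high in the low-detection libraries than accessory ones were, and some were low there. The low-detection libraries all lay below the rest of their group for 5, 5 and 3 of 16 core members in automatic, manual and in vivo. This was 31.25%, 31.25% and 18.75% of core members, against 31.1%, 32.8% and 24.2% of all genes tested. ATP5F1B, the catalytic beta subunit of ATP synthase, had 4335, 2232, 3166, 806 and 3275 CPM in automatic, 4264, 1273, 3748, 1617 and 1811 CPM in manual and 5009, 2075, 3957, 3188 and 3978 CPM in in vivo libraries. Its low-detection libraries averaged 0.423, 0.445 and 0.610 times the rest of the automatic, manual and in vivo groups. SDHA, the flavoprotein of succinate dehydrogenase, had 645, 603, 608, 136 and 408 CPM in automatic, 666, 197, 786, 193 and 247 CPM in manual and 721, 13.9, 607, 326 and 391 CPM in in vivo libraries, with in vivo 2 the lowest of all. Some accessory members were also low in a single library. NDUFA9, a complex I subunit that binds a nucleotide, was near 0 in automatic 4 (0.166 CPM) and at 113 CPM or more elsewhere. NDUFA10 (23.2 CPM) and NDUFB10 (17.3 CPM), accessory subunits of complex I, had their lowest values in in vivo 2.

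Counted over members, the low-detection libraries all lay above the rest of their group for 49 of 82 members in automatic, 62 of 82 in manual and 49 of 82 in in vivo libraries, against 10.4%, 23.3% and 10.6% of all genes tested. Among accessory members the counts were 39, 48 and 36 of 57, and among core members 2, 5 and 4 of 16. All 9 mitochondrially encoded members were so placed in manual and in in vivo libraries and 8 of 9 in automatic ones. The split into low and high detection was drawn on gene detection with these data known, so these counts describe the libraries and no test was made. What sets these libraries apart was not tested.

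**Figure D2:**
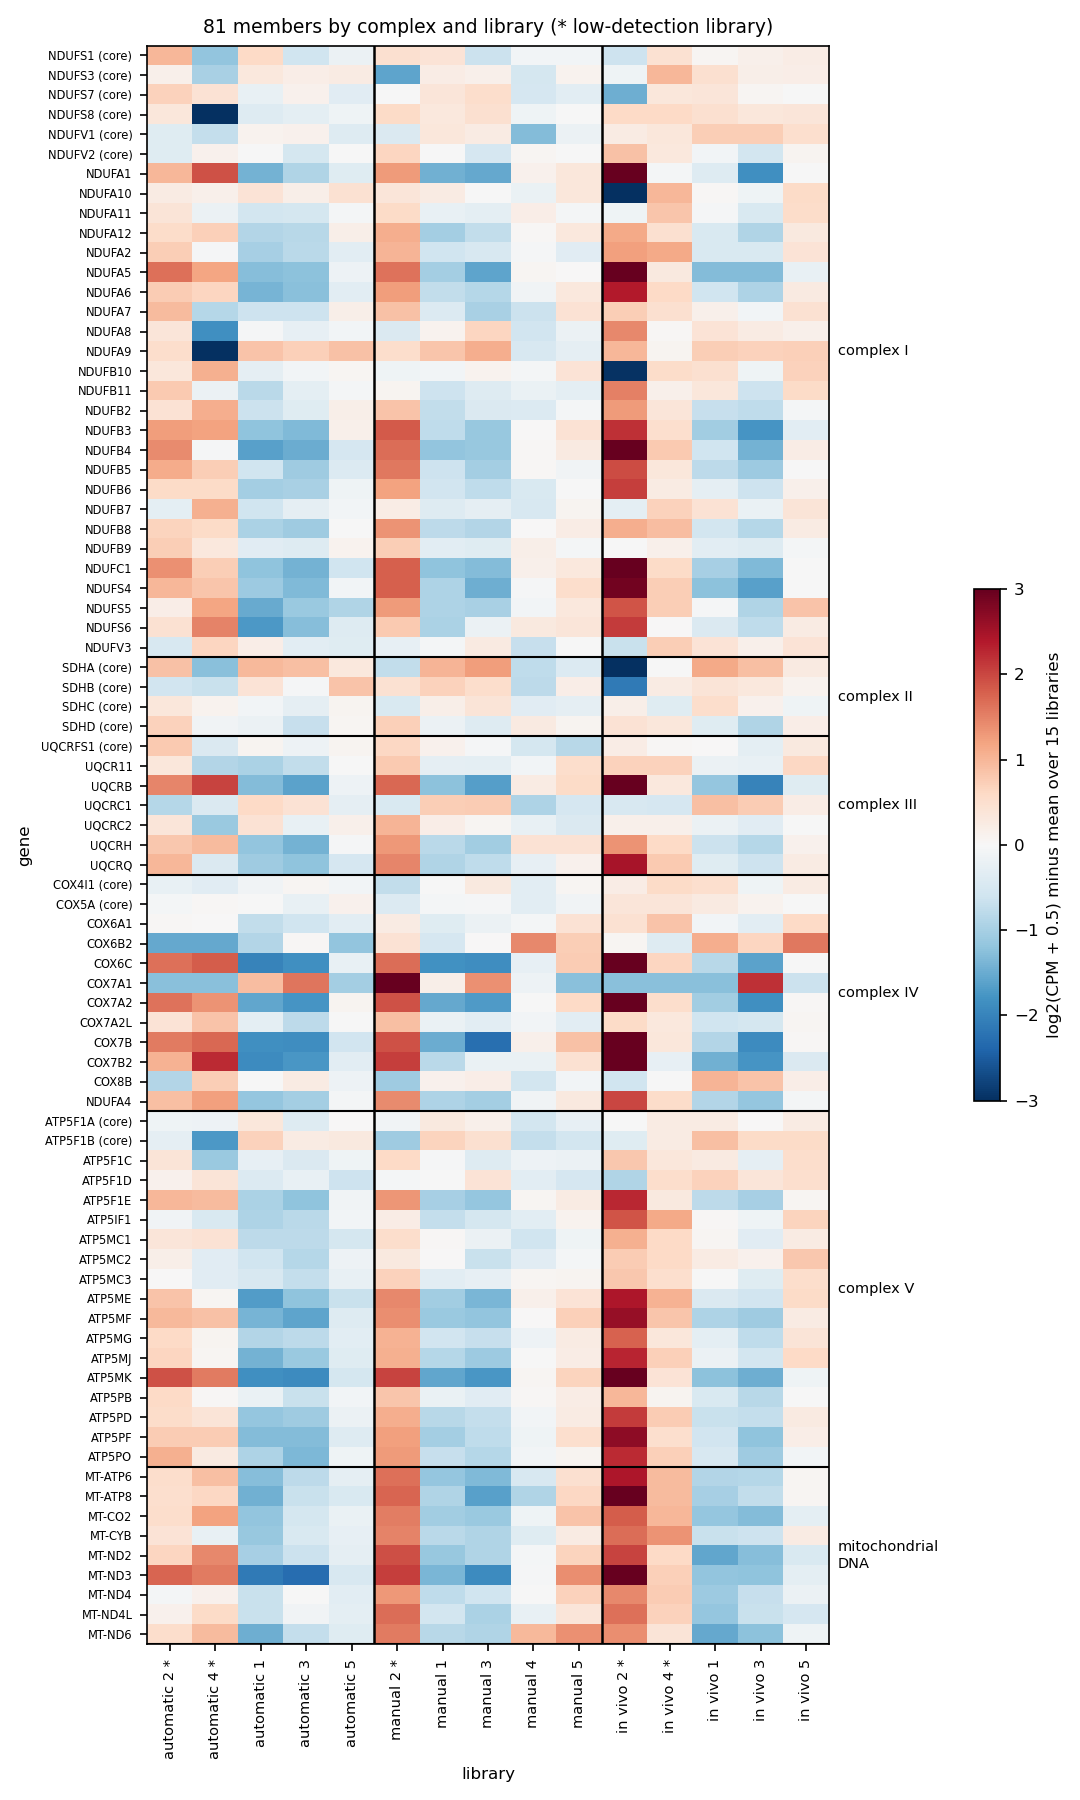
Level of 81 of the 82 members kept by the filter (rows, by complex, core subunits first) in each library (columns, automatic, manual, in vivo, low-detection libraries marked * and first in their group), as log2(CPM + 0.5) minus the gene's mean over 15 libraries, with colours ending at -3 and 3. The low-detection columns are red in most accessory and mitochondrially encoded rows and of mixed colour in the core rows, whichever group they come from.

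Against in vivo blastocysts, most nuclear subunits had fold changes below 0, but the tilt rested in large part on 1 in vivo library. In in vitro against in vivo, 61 of 73 nuclear members had a log2 fold change below 0, against 51.8% of all genes, with a median of -0.47, against -0.04 over all genes. Without the 5 low-detection libraries the count was 54 of 74, against 50.6% of all genes, with a median of -0.17, against -0.01. Without in vivo 2 alone it was 40 of 74, against 49.7% of all genes, with a median of -0.06. In vivo 2 also had the lowest scaling factor of all libraries, 0.543 against 0.782 to 1.24 in the others, which raises its CPM values. With library size alone the count was 50 of 73, while the median over all genes moved to 0.098.

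Core and accessory subunits differed in how much they depended on that library. Among accessory members 51 of 57 had fold changes below 0 (median -0.50), and 27 of 58 without in vivo 2 (median 0.12). Among core members 10 of 16 did so (median -0.16), and 13 of 16 without in vivo 2 (median -0.21) as well as without the low-detection libraries (median -0.16). Whether core and accessory members differed between groups was not tested.

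Complex I, the entry point for electrons from NADH, had 26 of 32 nuclear members below 0 (median -0.36), 24 of 32 without the low-detection libraries and 17 of 32 without in vivo 2. NDUFV1, the core subunit that holds the flavin and binds NADH, had 329, 241, 334, 186 and 234 CPM in automatic, 387, 229, 367, 125 and 270.3 CPM in manual and 511, 362, 517, 392 and 436 CPM in in vivo libraries. All 5 automatic libraries lay below all 5 in vivo libraries, and manual 1 and 3 overlapped the in vivo range. This gave a log2 fold change of -0.72 ± 0.28 (SE) in in vitro against in vivo, with an edgeR quasi-likelihood p of 0.697 after Benjamini-Hochberg adjustment, and -0.73 ± 0.31 without the low-detection libraries. NDUFV1 was the only member without overlap between automatic and in vivo libraries, a pattern that 1.16% of all genes showed in the lower direction.

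NDUFB4 and NDUFB11, accessory subunits of the membrane arm, followed in order of p. NDUFB4 ranged over 104 to 863 CPM in automatic, 142 to 1033 CPM in manual and 121 to 3869 CPM in in vivo libraries, and library 2 of each group was the highest. For this gene the log2 fold change was -1.50 ± 0.69 (SE) with all libraries, -0.29 ± 0.43 without the low-detection ones and 0.21 ± 0.60 without in vivo 2. NDUFB11 ranged over 125 to 376 CPM in automatic, 140.5 to 232 CPM in manual and 141 to 625 CPM in in vivo libraries. Its log2 fold change was -0.70 ± 0.33 (SE) with all libraries and -0.31 ± 0.31 without in vivo 2.

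Complex II, the only one with no mitochondrially encoded subunit, had fold changes on both sides of 0. Its median log2 fold change was 0.09, and 1 of 4 members was below 0. SDHB, the iron-sulfur subunit, had 225, 113, 166, 106 and 308 CPM in automatic, 273, 231, 245, 97.9 and 193 CPM in manual and 222, 38.3, 209, 200.2 and 182 CPM in in vivo libraries, with in vivo 2 far below the rest of its group. edgeR put the log2 fold change at 0.20 ± 0.40 (SE) with all libraries and -0.05 ± 0.33 without in vivo 2. The membrane anchors SDHC and SDHD, which hold the haem, had log2 fold changes of -0.11 ± 0.26 and 0.07 ± 0.29 (SE). SDHA, whose values are given above, had 0.12 ± 0.58 (SE). All 4 standard errors exceeded the size of the change.

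Complex III had 6 of 7 nuclear members below 0 (median -0.25), 5 of 7 without the low-detection libraries and 3 of 7 without in vivo 2. UQCRQ, a small subunit beside cytochrome b, had 207, 861, 188, 323 and 304 CPM in automatic, 234, 1208, 256, 364 and 473 CPM in manual and 339, 2401, 282, 746 and 518 CPM in in vivo libraries, and the groups overlapped. The estimated log2 fold change was -0.97 ± 0.51 (SE) with all libraries and -0.10 ± 0.46 without in vivo 2. UQCR11, a small accessory subunit, had -0.45 ± 0.34 (SE). UQCRB had -0.57 ± 0.75 (SE) with all libraries and 1.15 ± 0.70 without in vivo 2, so 1 library set its direction. As a share of nuclear member counts, complex III took 10.4, 10.6, 9.91, 11.4 and 9.57% in automatic, 9.86, 11.5, 9.68, 10.1 and 9.10% in manual and 8.80, 9.15, 9.28, 8.46 and 8.61% in in vivo libraries. All 5 automatic libraries lay above all 5 in vivo libraries, and manual libraries overlapped the in vivo range at its upper end. The means were 10.4 ± 0.712% in automatic, 10.04 ± 0.893% in manual and 8.86 ± 0.351% in in vivo libraries (SD, n = 5 each). The share depends on the counts of the other complexes, was singled out after its values were seen and was not tested.

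Complex IV, where oxygen is reduced, had 10 of 12 nuclear members below 0 (median -0.48), 8 of 13 without the low-detection libraries and 5 of 13 without in vivo 2. COX6A1, the general form of subunit VIa, ranged over 464 to 797 CPM in automatic, 599 to 1047 CPM in manual and 625 to 1386 CPM in in vivo libraries. Its log2 fold change was -0.48 ± 0.25 (SE) with all libraries and -0.45 ± 0.25 without in vivo 2, so this member's value hardly moved. COX4I1, a nuclear subunit that joins the catalytic core early in assembly, had 501, 465, 563, 428 and 509 CPM in automatic, 533, 324, 664, 435 and 561 CPM in manual and 764, 634, 494, 799 and 646 CPM in in vivo libraries, with a log2 fold change of -0.42 ± 0.23 (SE). COX7B had -1.56 ± 0.85 (SE) with all libraries and 0.91 ± 0.76 without in vivo 2.

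COX5A, which binds the matrix side of the catalytic core, was the member without overlap between manual and in vivo libraries. It had 608, 595, 529.6, 631 and 669 CPM in automatic, 594, 462, 597, 492 and 569 CPM in manual and 741, 791, 666, 789 and 607 CPM in in vivo libraries. All 5 manual libraries lay below all 5 in vivo libraries, and the automatic ones overlapped both groups. In manual against in vivo its log2 fold change was -0.41 ± 0.24 (SE), with an edgeR quasi-likelihood p of 0.9997 after Benjamini-Hochberg adjustment. It was 1 of 82 members without overlap in the lower direction, against 0.605% of all genes. In in vitro against in vivo 0 of 82 members were lower without overlap, against 0.276% of all genes. In automatic against manual 0 of 82 were lower without overlap, against 0.527%.

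Complex V had the lowest median of the 5 complexes, and its members ATP5IF1 and ATP5MC2 had the 2 smallest p-values of all members. All 18 nuclear members had log2 fold changes below 0 (median -0.62), 15 of 18 without the low-detection libraries (median -0.33) and 12 of 18 without in vivo 2 (median -0.25). ATP5IF1, the inhibitor that binds ATP synthase and blocks ATP hydrolysis, had 194, 339, 209, 266 and 346 CPM in automatic, 222, 431, 255, 296 and 392 CPM in manual and 373, 1352, 335, 806 and 583 CPM in in vivo libraries. In vivo 2, 4 and 5 lay above all 10 in vitro libraries, and in vivo 1 and 3 overlapped them. The fitted log2 change was -1.23 ± 0.32 (SE) in in vitro against in vivo, with an edgeR quasi-likelihood p of 0.000981 before and 0.324 after Benjamini-Hochberg adjustment. It was -0.67 ± 0.28 without the low-detection libraries and -0.83 ± 0.28 without in vivo 2.

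ATP5MC2, which encodes the c subunit of the proton-turned ring, had 347, 601, 291, 418 and 476 CPM in automatic, 531, 645, 334, 420.1 and 512 CPM in manual and 633, 901, 575, 803 and 921 CPM in in vivo libraries. Each in vivo library lay above 8 or more of the 10 in vitro libraries, so the groups overlapped little. This gave a log2 fold change of -0.75 ± 0.25 (SE) with an edgeR quasi-likelihood p of 0.553 after Benjamini-Hochberg adjustment, -0.80 ± 0.25 without the low-detection libraries and -0.68 ± 0.25 without in vivo 2. The other genes for the same c subunit, ATP5MC1 and ATP5MC3, share its mature protein sequence and may share reads, so how the counts divide among the 3 is uncertain. ATP5MJ, a small subunit of the membrane part, ranged over 101 to 417 CPM in automatic, 125 to 564 CPM in manual and 183 to 1304 CPM in in vivo libraries. Its log2 fold change was -1.02 ± 0.46 (SE) with all libraries and -0.32 ± 0.42 without in vivo 2.

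**Figure D3:**
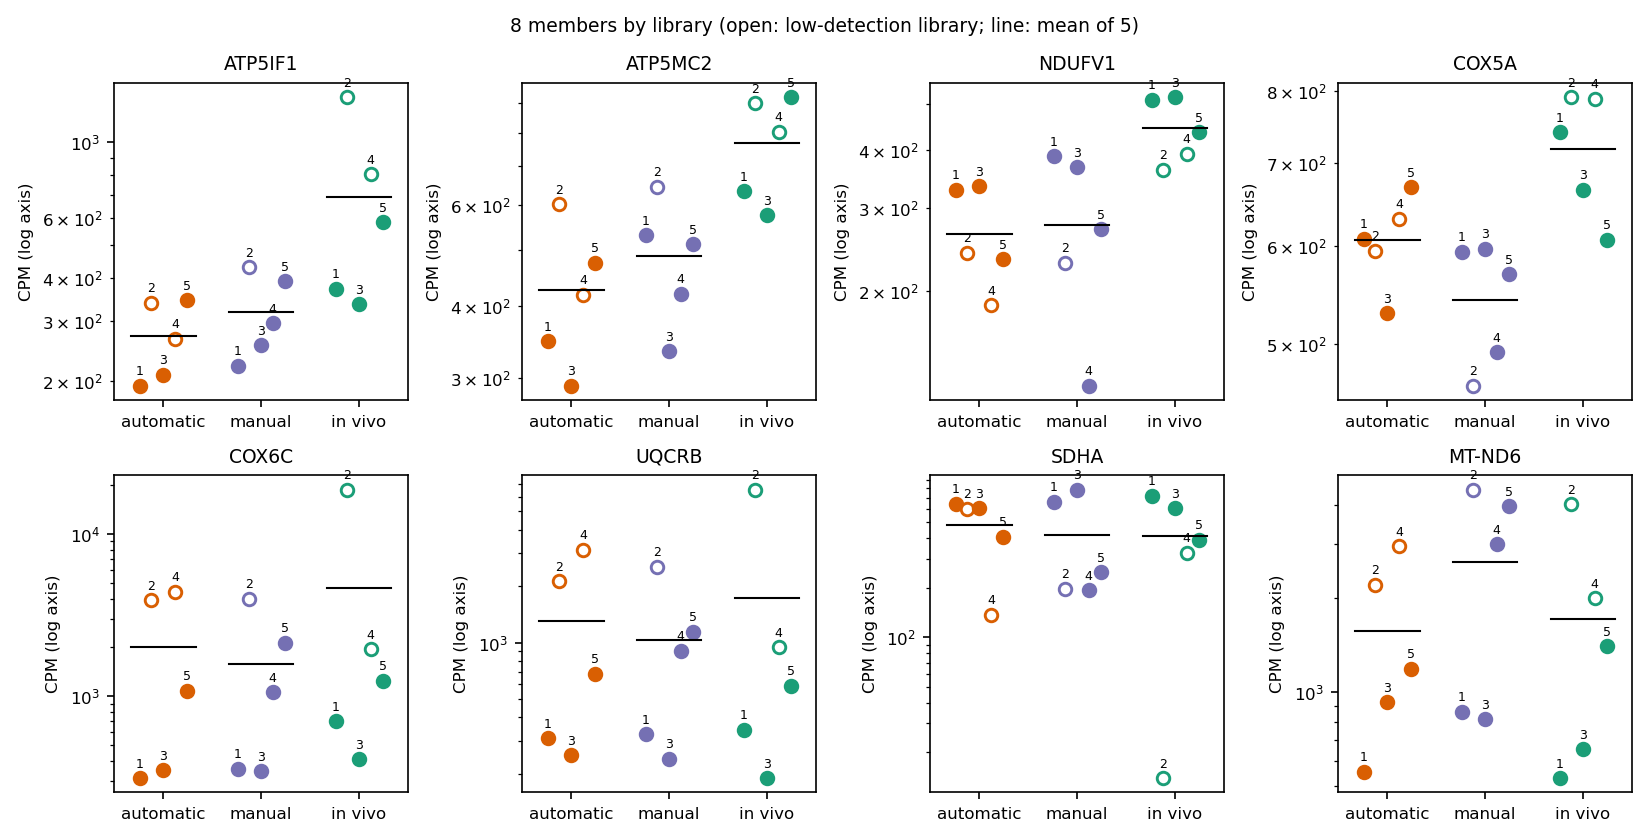
CPM (log axes) of 8 members in each library, with automatic, manual and in vivo from left to right. Numbers are library numbers, open points are low-detection libraries and lines are the mean of 5. ATP5IF1, ATP5MC2, NDUFV1 and COX5A show in vivo points mostly above the in vitro ones, whereas COX6C, UQCRB and MT-ND6 spread more within a group than between groups, and SDHA is lowest in in vivo 2.

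Among the mitochondrially encoded members, 8 of 9 had log2 fold changes below 0 in in vitro against in vivo (median -0.26), 3 of 9 without the low-detection libraries (median 0.44) and 1 of 9 without in vivo 2 (median 0.42), so the direction turned with the libraries used. MT-CO2, the copper-binding subunit that takes electrons from cytochrome c, had 4434, 14526, 7007, 23072 and 8759 CPM in automatic, 4897, 28975, 4618, 9148 and 18126 CPM in manual and 4477, 35179, 4086, 19999 and 8240.1 CPM in in vivo libraries. Manual 2 and in vivo 2 were the highest and the 3 groups overlapped. In the fit its log2 fold change was -0.22 ± 0.52 (SE) with all libraries and 0.49 ± 0.43 without the low-detection ones. MT-CYB, the haem-bearing cytochrome b of complex III, had 7577, 22242, 12241, 14331 and 14114 CPM in automatic, 9589, 47122, 8939, 13058 and 19858 CPM in manual and 10495, 53892, 10976, 42506 and 19832 CPM in in vivo libraries, with a log2 fold change of -0.72 ± 0.42 (SE) with all libraries, -0.19 ± 0.31 without the low-detection ones and -0.32 ± 0.43 without in vivo 2.

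The proton-channel subunit MT-ATP6 and its neighbour MT-ATP8 are translated from overlapping frames of 1 transcript, so their counts are not independent. MT-ATP8 counts were 1.43 to 3.48% of those of MT-ATP6 over the 15 libraries. The log2 fold change was -0.75 ± 0.54 (SE) for MT-ATP6 and -1.35 ± 0.64 for MT-ATP8 with all libraries, and 0.14 ± 0.52 and 0.10 ± 0.56 without in vivo 2. MT-ND4L and MT-ND4, proton-pumping subunits of complex I, likewise share a transcript, and MT-ND4L counts were 3.53 to 6.12% of those of MT-ND4. Their log2 fold changes were -0.21 ± 0.46 and -0.26 ± 0.38 (SE). MT-ND2 and MT-ND3, further complex I genes of mitochondrial DNA, had -0.06 ± 0.58 and -0.79 ± 0.80 (SE).

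MT-ND6 is encoded on the light strand of mitochondrial DNA, opposite the other 8 members, and was the only mitochondrially encoded member above 0. It had 554, 2215, 928, 2949 and 1187 CPM in automatic, 864, 4478, 818, 2995 and 3959 CPM in manual and 529, 4016, 654, 2002 and 1402 CPM in in vivo libraries. Manual 2, 4 and 5 and in vivo 2 were the highest, and the groups overlapped. edgeR put the log2 fold change at 0.24 ± 0.51 (SE) with all libraries and 0.69 ± 0.52 without the low-detection ones. The library kit keeps strand, but whether strand was used in counting is not given in the sources used here. Reads of this gene and of the opposite strand may therefore not be told apart.

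**Figure D4:**
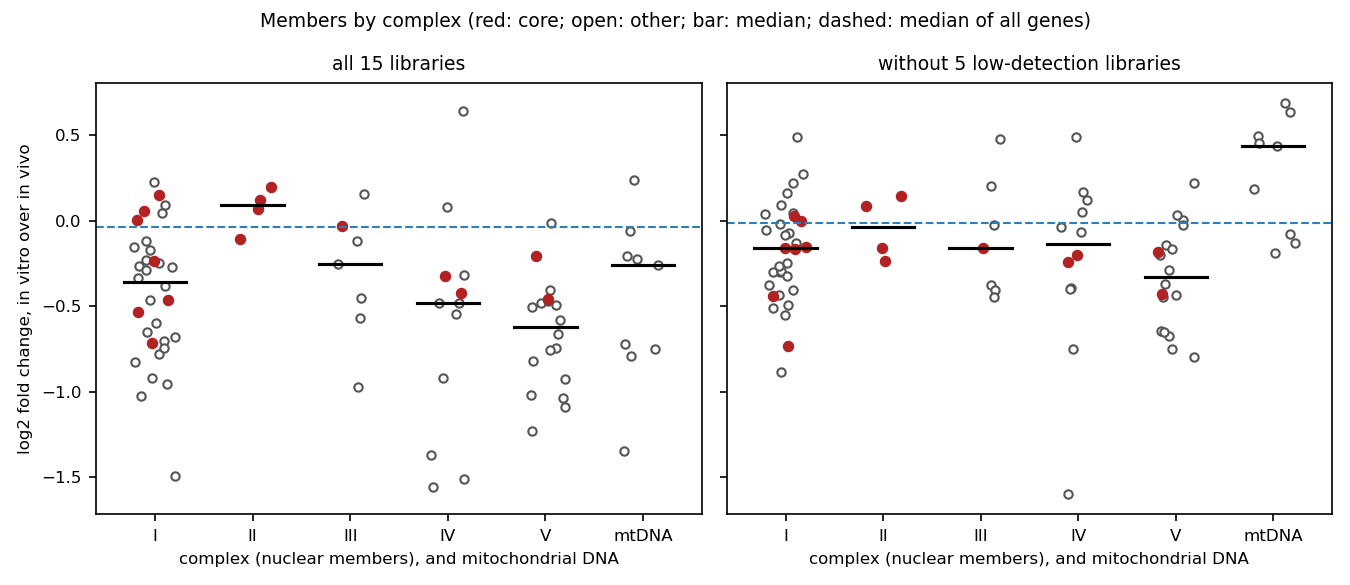
Log2 fold change, in vitro over in vivo, with all 15 libraries (left) and without the 5 low-detection libraries (right). Drawn are the nuclear members kept by the filter with all 15 libraries, by complex, and the mitochondrially encoded members (mtDNA). NDUFA4L2 passed the filter in the fit on the right alone and is not drawn, so the right complex IV bar leaves it out. Red points are core subunits, open points the other members, bars the medians and the dashed line the median of all genes tested. All 18 complex V points lie below 0 on the left and 15 of 18 on the right, and the median of the mitochondrially encoded members is -0.26 on the left and 0.44 on the right.

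Each in vitro group was also set against in vivo on its own, and both comparisons share the 5 in vivo libraries. In automatic against in vivo, 60 of 73 nuclear members had fold changes below 0, against 52.4% of all genes, and 59 of 74 without the low-detection libraries, against 49.9%. In manual against in vivo, 62 of 73 were below 0, against 50.6% of all genes, and 42 of 74 without the low-detection libraries, against 49.4%. Without in vivo 2 the counts were 44 of 74 in automatic against in vivo and 37 of 74 in manual against in vivo. The median nuclear log2 fold change was -0.44 in automatic against in vivo and -0.39 in manual against in vivo, and -0.35 and -0.12 without the low-detection libraries. The mitochondrially encoded median was -0.51 in automatic against in vivo and -0.13 in manual against in vivo, and 0.06 and 0.56 without the low-detection libraries.

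ATP5IF1 had the smallest p of all members in both, with log2 fold changes of -1.35 ± 0.38 (SE) in automatic against in vivo and -1.11 ± 0.38 in manual against in vivo. The adjusted p from edgeR's quasi-likelihood test was 0.511 in automatic against in vivo and 0.9997 in manual against in vivo. NDUFV1 had -0.75 ± 0.33 (SE) and NDUFB11 -0.83 ± 0.40 as the complex I members with the smallest p in automatic and in manual against in vivo. For complex III the member was UQCRQ in both, with -1.19 ± 0.61 (SE) in automatic and -0.76 ± 0.60 in manual against in vivo. COX6A1 in automatic against in vivo had -0.64 ± 0.29 (SE). In complex II, SDHA had 0.22 ± 0.67 (SE) in automatic against in vivo and SDHB 0.29 ± 0.46 in manual against in vivo.

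The ranges of automatic and manual libraries overlapped for every member, and 0.527% of all genes tested were lower in automatic without overlap. In automatic against manual, 44 of 73 nuclear members had a log2 fold change below 0, against 52.9% of all genes, with a median of -0.09, against -0.05 over all genes. Without the low-detection libraries the count was 55 of 74, against 51.4%, with a median of -0.27. The count was 20 of 73 in the fit without manual 2 (median 0.17) and 58 of 73 in the fit without automatic 2, so it depended on which of these libraries was present. All 9 mitochondrially encoded members were below 0 with all libraries (median -0.40) and without the low-detection ones (median -0.35), but their median was 0.31 without manual 2.

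NDUFS8, the core complex I subunit that carries a pair of iron-sulfur clusters, had 213, 356, 227, 31.4 and 254 CPM in automatic and 349, 417, 388, 256 and 279 CPM in manual libraries. Automatic 4 was far below the others and automatic 2 was within the manual range, and the log2 fold change was -0.64 ± 0.42 (SE), with an edgeR quasi-likelihood p of 0.9999 after Benjamini-Hochberg adjustment. In complexes II, III and V, the log2 fold change was -0.18 ± 0.46 (SE) for SDHB, -0.55 ± 0.40 for UQCR11 and -0.42 ± 0.28 for ATP5MC3. MT-ND6 had -0.74 ± 0.59 (SE) with all libraries. Without the low-detection ones it had -1.27 ± 0.57, with an edgeR quasi-likelihood p of 0.0441 before and 1 after Benjamini-Hochberg adjustment.

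Isoforms known from adult tissues were at low levels or listed at 0 counts in nearly all libraries. COX4I2, the oxygen-sensitive alternative to COX4I1, had counts in automatic 1 alone (0.219 CPM), and COX6A2, the heart and skeletal muscle form of subunit VIa, in automatic 4 alone (0.553 CPM). COX7A1, the muscle form of subunit VIIa, stayed at or below 9.28 CPM in all libraries. COX7A2, the general form, had 281 to 2959 CPM in automatic, 298 to 3593 CPM in manual and 267 to 9789 CPM in in vivo libraries. COX6B2, the testis form of subunit VIb, had 0.281, 0, 0.967, 0 and 0.135 CPM in automatic, 0.522, 1.45, 0.948, 3.43 and 1.90 CPM in manual and 2.56, 0.995, 1.76, 0.595 and 3.81 CPM in in vivo libraries, and its log2 fold change in automatic against manual was -2.55 ± 1.52 (SE).

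COX7B2 and COX8B were detected in every library. COX7B2, a paralog of COX7B that is testis-enriched in human, had 7.63 to 139.9 CPM in automatic, 16.5 to 125 CPM in manual and 8.26 to 282 CPM in in vivo libraries, and in vivo 2 was again the highest. COX8B, a muscle form of subunit VIII in rodents and cattle, had 16.6 to 52.3 CPM in automatic, 14.6 to 35.8 CPM in manual and 20.4 to 63.8 CPM in in vivo libraries. NDUFA4L2, a paralog of NDUFA4 that hypoxia induces in human and mouse cells, was at 12.9 CPM in manual 1 and 29.0 CPM in manual 3, at 1.31 and 3.04 CPM in automatic 1 and 2 and at 0 in all 5 in vivo libraries. Reads shared between such paralogs are divided by estimation, so the values of such paralogs are uncertain.

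Among the genes around the respiratory chain, edgeR's quasi-likelihood test gave 0 calls in in vitro against in vivo after adjustment. At an unadjusted p under 0.05 it gave 1 of 51 assembly factors, 1 of 29 genes of mitochondrial DNA and RNA upkeep, 0 of 12 transcriptional regulators, 3 of 75 mitochondrial ribosome genes, 1 of 25 carriers and 1 of 14 tricarboxylic acid cycle genes, against 6.13% of all genes tested. Of the factors that assemble the complexes, 30 of 51 tested had log2 fold changes below 0 in in vitro against in vivo, against 51.8% of all genes. COX17, the copper chaperone of complex IV, had the smallest p in that list, with 45.6, 161, 38.7, 79.6 and 70.6 CPM in automatic, 47.3, 100.3, 34.9, 93.8 and 97.3 CPM in manual and 74.8, 406, 56.3, 131 and 113 CPM in in vivo libraries and a log2 fold change of -1.02 ± 0.48 (SE). Of the genes that keep and process mitochondrial DNA and RNA, 13 of 29 were below 0, and PNPT1, a mitochondrial RNA exonuclease, had 1.22 ± 0.53 (SE). PNPT1 was at 7.19 CPM in in vivo 2 and at 31.7 to 68.9 CPM in the other in vivo libraries. Of the transcriptional regulators of mitochondrial genes, 8 of 12 were below 0.

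Of the mitochondrial ribosomal proteins, which serve translation of the mitochondrially encoded subunits, 59 of 75 were below 0. Their median was -0.25 with all libraries and -0.21 without the low-detection ones, against -0.04 and -0.01 over all genes. MRPL22 had -1.23 ± 0.44 (SE) with all libraries and -0.36 ± 0.32 without the low-detection ones. Of the electron carriers and substrate carriers, 18 of 25 were below 0. SLC25A5, an ADP/ATP carrier that exports the ATP made, had 1875, 3254, 1891, 1141 and 1659 CPM in automatic, 2119.6, 4547, 1352, 1438 and 1129 CPM in manual and 1264, 1951, 767, 554 and 1177 CPM in in vivo libraries. All 10 in vitro libraries lay above in vivo 3 and 4. Its log2 fold change was 0.84 ± 0.37 (SE), above 0, and 0.63 ± 0.26 without the low-detection libraries.

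Of the tricarboxylic acid cycle enzymes, which supply NADH and succinate, 9 of 14 were below 0. MDH2, the malate dehydrogenase of mitochondria, had 730.4, 598, 619, 367 and 568 CPM in automatic, 798, 240.2, 813, 339 and 482 CPM in manual and 828, 1317, 808, 954 and 856 CPM in in vivo libraries. All automatic libraries lay below all in vivo libraries, and manual 3 overlapped the in vivo range. The log2 fold change was -0.78 ± 0.29 (SE) with an edgeR quasi-likelihood p of 0.658 after Benjamini-Hochberg adjustment. In automatic against manual, SUCLA2, a subunit of succinyl-CoA ligase, was the 1 listed gene with an unadjusted p under 0.05. It had 474, 303, 248, 521 and 294 CPM in automatic and 264, 254, 134, 251 and 160.5 CPM in manual libraries, and automatic 3 alone lay within the manual range, with a log2 fold change of 0.79 ± 0.37 (SE) and an adjusted p of 0.9999 from edgeR's quasi-likelihood test.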

How the data were processed

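Poly(A) RNA of 15 blastocyst libraries was sequenced, 5 each of automatic, manual and in vivo, with a stranded kit and molecular identifiers, per the labels' protocols. The values are estimated counts by gene, without scaling, in a single table that the authors deposited. Tools listed per the submitters' processing notes are FastQC, fastp and kallisto (no versions). The transcript set, build and use of identifiers were not given in the sources used here; coordinates are left out. Counts were rounded, which changed 0 values, and 1 line without a gene name, which held a share of 0 of the counts, was left out. Libraries differed pairwise by more than sampling noise (lowest chi-square over its degrees of freedom, 184).

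Genes were tested in R 4.3.3 with edgeR 4.0.16 (TMM factors, filterByExpr, robust quasi-likelihood F test, 1 mean per group over all 15 libraries, Benjamini-Hochberg adjustment). Standard errors were taken as |log2 fold change|/√F. CPM values use TMM-scaled library sizes. Each group has 5 libraries, of 17.96 to 41.97 M counts over all groups, and the standard errors measure the spread between them. The alternatives were other scalings and filters, DESeq2 1.42.0, limma 3.58.1 (voom, without and with quality weights), a replicate block, detected genes as a covariate, only the groups compared, and leaving out the low-detection libraries or each library in turn. The procedure was also run on simulated counts. These were drawn independently for each gene, with no set of low-detection libraries built in, so that run does not cover these features of the data.

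The members, lists and low-detection limit (9000 genes with at least 10 counts) were chosen with earlier results of these data known. Genes named with fold changes are, in in vitro against in vivo, the 3 nuclear members of each complex with the smallest p and all mitochondrially encoded members; in each other comparison, the nuclear member of each complex with the smallest p; and, from each list of related genes, the gene with the smallest p if under 0.05. Isoforms are named for their levels. Members named for their spread between libraries or for groups without overlap were chosen after their values were seen. Of the 85 members, 83 matched a symbol of the reference annotation. The values of 1 member are not reported here, and it stays in the counts and sums over members.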

Additional observations from a re-analysis of the deposited data

Results flagged for a closer look

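In groups of 5 libraries, a value was picked out when its gap to the nearest other library exceeded 0.71 of the whole range of the group. Of 99 sets of values tested, 16 met this. The rule picks out about 1 in 20 sets of independent, normally distributed values. The sets here were unlogged and many came from genes that vary together, so the 16 cannot be compared with that rate. Of the 16, 11 were in in vivo 2.

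In vivo 2 stood above the other 4 in vivo libraries in the nuclear members' share of counts, at 6.97% against 3.31 to 4.27%, and in the ratio of accessory to core counts, at 12.2 against 1.27 to 2.80. It stood above them for ATP5MJ at 1304 CPM, COX7B at 8030.0 CPM, NDUFB4 at 3869 CPM, UQCRB at 6533 CPM and UQCRQ at 2401 CPM. The same held for the mitochondrially encoded MT-ATP6 at 76449 CPM, MT-ATP8 at 2660 CPM and MT-ND3 at 20285 CPM. For SDHB it stood below them, at 38.3 CPM against 182 to 222 CPM.

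Automatic 2 stood above the other automatic libraries for NDUFB4, at 863 CPM against 104 to 315 CPM, and for UQCRQ, at 861 CPM against 188 to 323 CPM. Manual 2 stood above the other manual libraries for NDUFB4, at 1033 CPM against 142 to 392 CPM, for UQCRQ, at 1208 CPM against 234 to 473 CPM, and for MT-CYB, at 47122 CPM against 8939 to 19858 CPM. These 3 libraries are among the 5 with low detection.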

How the results depend on the processing

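No member was called under any alternative, except ATP5MC2 in automatic against in vivo by limma-voom with quality weights (1 member called). In vitro against in vivo uses every group, so a fit on only the groups compared gave no value for it. The cause of each change given here was not tested. Of the values for single named genes under alternatives, 1125 kept their direction and side of the threshold and 61 changed sign.

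Genes called in in vitro against in vivo (2 in the report) numbered 0 with library size alone, 87 by DESeq2, 15 by limma-voom, 107 by limma-voom with quality weights, 7 with detected genes as a covariate and 7 without the low-detection libraries. In automatic against in vivo (2) they numbered 0 with library size alone, 1 with no filter, 1 with only the groups compared, 87 by DESeq2, 9 by limma-voom, 95 by limma-voom with quality weights and 9 without the low-detection libraries. In manual against in vivo (0) they numbered 44 by DESeq2, 1 by limma-voom, 2 by limma-voom with quality weights and 3 without the low-detection libraries, and in automatic against manual (0) 9 by DESeq2, 1 by limma-voom with quality weights and 1 without the low-detection libraries.

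The mitochondrially encoded median (log2) turned above 0 in in vitro against in vivo with library size alone (0.074), limma-voom (0.19), limma-voom with quality weights (0.35) and without the low-detection libraries (0.44). In automatic against in vivo it did so by limma-voom (0.12), with quality weights (0.019) and without the low-detection libraries (0.056). In manual against in vivo it did so with library size alone (0.18), limma-voom (0.23), quality weights (0.47), detected genes as a covariate (0.20) and without the low-detection libraries (0.56).

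In in vitro against in vivo, library size alone gave SDHC 0.034, MT-CO2 0.13, MT-ND2 0.34, MT-ND4 0.074 and MT-ND4L 0.13 as log2 fold changes, and scaling without the mitochondrially encoded members gave MT-ND2 0.065. Limma-voom gave UQCRB 0.36, MT-CO2 0.30, MT-ND2 0.51, MT-ND4 0.21 and MT-ND4L 0.19. With quality weights it gave UQCRB 0.37, MT-CO2 0.35, MT-ND2 0.55, MT-ND4 0.36 and MT-ND4L 0.37, with SDHB at 0.15 in automatic against manual and -0.065 in manual against in vivo. Detected genes as a covariate gave UQCRB 0.14, MT-CO2 0.11, MT-ND2 0.28 and MT-ND4L 0.047. Without the low-detection libraries the values were UQCRB 0.48, MT-CO2 0.49, MT-ND2 0.63, MT-ND3 0.18, MT-ND4 0.44 and MT-ND4L 0.45, with SDHB at 0.22 in automatic against manual and -0.023 in manual against in vivo, and SDHA at -0.035 in automatic against in vivo.

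Leaving out 1 library at a time gave 0 to 7 genes called in in vitro against in vivo and 0 to 4 in automatic against in vivo. The nuclear median in automatic against manual ranged from -0.30 to 0.17, highest without manual 2. The mitochondrially encoded median ranged from -0.52 to 0.42 in in vitro against in vivo, -0.72 to 0.21 in automatic against in vivo, -0.66 to 0.53 in manual against in vivo (each highest without in vivo 2) and -0.59 to 0.31 in automatic against manual (highest without manual 2). For single genes in in vitro against in vivo the ranges were NDUFB4 -1.82 to 0.21, SDHB -0.047 to 0.31, SDHC -0.18 to 0.023, SDHD -0.095 to 0.22, UQCRB -0.88 to 1.15, COX7B -1.91 to 0.91, MT-ATP6 -1.10 to 0.14, MT-ATP8 -1.72 to 0.095, MT-CO2 -0.47 to 0.42, MT-ND2 -0.42 to 0.85, MT-ND3 -1.11 to 0.92, MT-ND4 -0.46 to 0.23 and MT-ND4L -0.52 to 0.42. SDHA ranged from -0.073 to 0.53 in automatic against in vivo and UQCRQ from -1.35 to 0.12 in manual against in vivo.

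The labels do not say that replicate numbers pair libraries, and the check of pairing was not met: correlations of same-numbered libraries ran from 0.00137 to 0.380, and 4 of 15 pairs correlated best with their own number. Number 2 is a low-detection library in all 3 groups. With the replicate number as a block, 8 genes were called in in vitro against in vivo, 7 in automatic against in vivo and 1 in manual against in vivo, with 0 members called. The members at an unadjusted p under 0.05 numbered 21 of 82 in in vitro against in vivo (7 without the block), 2 in automatic against manual (0 without), 20 in automatic against in vivo (6 without) and 9 in manual against in vivo (2 without). The genes of all kinds at that p numbered 749, 244, 732 and 510 with the block and 710, 171, 621 and 392 without it, in the same order. The block moved the mitochondrially encoded median in manual against in vivo to 0.053 and, in in vitro against in vivo, UQCRB to 0.030, MT-CO2 to 0.023, MT-ND2 to 0.26 and MT-ND4L to 0.027.

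The rare isoforms were at or near 0 counts, and some other members were low in single low-detection libraries. NDUFA9 had 3 counts in automatic 4, and in in vivo 2 SDHA had 182, NDUFB10 226 and NDUFA10 303 counts. Whether depth limited the members was not tested. A member without a call is not shown to be equal between groups.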

Other observations

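The nuclear member counts divided among the complexes unevenly. Complex I held a steady share of them, 22.8 ± 0.761% in automatic, 22.9 ± 0.894% in manual and 22.2 ± 1.17% in in vivo libraries (SD, n = 5 each). Complex V had the highest mean share in each group, 43.1 ± 6.57% in automatic, 44.9 ± 4.95% in manual and 46.1 ± 6.96% in in vivo libraries, although in in vivo 2 complex IV held more (35.0%) than complex V (34.3%). Complex IV varied from 11.3 to 35.0% over the 15 libraries, at 19.1 to 35.0% in the 5 with low detection and 11.3 to 22.4% in the other 10. Complex II varied from 0.918 to 6.47%, at 0.918 to 3.74% in the 5 with low detection and 3.49 to 6.47% in the other 10. These shares add up counts of transcripts of different length, so they compare libraries and not complexes in molecules.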
